A study of Homo sapiens with 2 samples.

Results

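Chromosome 10 carried 2722 of the 45924 parental ZMYND8 summits (5.93%, 95% interval 5.71 to 6.15) and 21 of the 385 knockout summits (5.45%, 3.41 to 8.22), or 2743 of 46309 over both lists. Every summit of both lists on hg19 chromosome 10 is described here. A summit is the position of highest signal in a peak, and its score is the −log10 p or q that the authors deposited for it (p and q are not told apart). A summit with a score of 10 or more is called strong. Chromosome 10 was chosen by its number of strong parental summits per gene, so that number, and everything that shares its scores, is a description with no test. The data came from chromatin immunoprecipitation and sequencing (ChIP-seq) with an antibody against ZMYND8 in mammospheres of MDA-MB-231, an established line from a triple-negative breast cancer. One group was parental (genotype wildtype) and the other carried a ZMYND8 knockout. Each had 1 library, and both were grown in MammoCult medium. The names of the deposited lists carry a replicate mark that the labels lack, and any other replicates were not analysed here. The sources used here give neither the read depth nor whether the knockout cells are 1 clone. Intervals are at 95% and cover counting error only.

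ZMYND8 binds acetylated and methylated histone tails through neighbouring bromodomain, PHD and PWWP domains, and partner proteins through its MYND domain. It is known to work with histone demethylases and the NuRD remodelling complex at promoters and enhancers. Such elements lie mostly in open chromatin. Chromosome 10 has a short arm (p) and a long arm (q), and its genes include regulators of transcription and adhesion such as ZEB1, GATA3, VIM and TCF7L2, and the sterol enzyme genes IDI1, CH25H, LIPA and SCD. None of these genes had an hg19 model here, so no summit was assigned to them.

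Promoter letters are shown for genes of chromosome 10 that have an hg19 transcript model and contrasting summits. RPP38 had the highest promoter score among these genes, NFKB2 had a summit at its start site, and R3HCC1L had no summit near its start. Each line gives the 250 bases before the start on the gene's own strand, which is the plus strand for all of them, from RefSeq on GRCh38.p14, whose start may differ from the hg19 model's. Capitals mark a CCAAT box (CCAAT on either strand) in RPP38, NF-kB sites in NFKB2 and a GC box (GGGCGG) in R3HCC1L.
RPP38: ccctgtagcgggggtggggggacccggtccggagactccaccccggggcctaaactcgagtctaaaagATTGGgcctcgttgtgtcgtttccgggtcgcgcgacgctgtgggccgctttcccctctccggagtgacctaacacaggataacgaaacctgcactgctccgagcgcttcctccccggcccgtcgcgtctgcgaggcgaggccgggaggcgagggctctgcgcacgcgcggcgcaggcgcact
NFKB2: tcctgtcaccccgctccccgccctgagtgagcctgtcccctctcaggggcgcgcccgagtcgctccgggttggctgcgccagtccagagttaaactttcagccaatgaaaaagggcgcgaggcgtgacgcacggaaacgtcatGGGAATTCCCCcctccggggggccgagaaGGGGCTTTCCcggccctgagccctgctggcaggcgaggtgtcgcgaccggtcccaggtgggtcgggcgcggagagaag
R3HCC1L: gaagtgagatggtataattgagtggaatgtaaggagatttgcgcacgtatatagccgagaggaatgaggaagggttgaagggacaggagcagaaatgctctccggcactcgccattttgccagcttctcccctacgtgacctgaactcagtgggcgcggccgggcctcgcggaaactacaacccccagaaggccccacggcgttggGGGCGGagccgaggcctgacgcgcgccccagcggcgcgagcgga

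RPP38 encodes a protein subunit of ribonuclease P, which trims transfer RNA precursors. Its only promoter summit lay at position 15139508, 154 bp past the start in 10p13, with a score of 14.4. Its promoter window had a GC content of 68.8% and held 1 CCAAT box, 182 bases before the start. NFKB2 encodes the p100 and p52 subunits of NF-kB. Its summit at position 104154334 in 10q24.32 lay 1 bp before the start and scored 7.77. The NFKB2 window had a GC content of 68.4% and held 3 matches to the NF-kB site, beginning 107, 106 and 78 bases before the start, and the first 2 of these overlap. It also held a CCAAT box 149 and a GC box 233 bases before the start, which are not in capitals. R3HCC1L, in 10q24.2, had its nearest summit 123857 bp from the start. Its window had a GC content of 61.2% and held a GC box 44 bases before the start. All 3 windows were GC-rich, since the median over 35114 RefSeq windows was 58.0%. With both strands searched, a GC box occurred in 42.6% of those windows, a CCAAT box in 32.0% and an NF-kB site in 5.21%. In the 1679 windows of chromosome 10 the shares were 39.8%, 30.6% and 5.60%. A match is a description of letters and does not show that a factor binds there.

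Over all scores, parental summits were spread over both arms at nearly the same density. The short arm held 818 summits over 40.2 Mb, or 20.3 per Mb (19.0 to 21.8). The long arm held 1904 over 95.3 Mb, or 19.97 per Mb (19.1 to 20.9). The ratio of the short to the long arm was 1.02 (0.938 to 1.11), which includes equal densities. Among summits with a score of at least 5 it was 1.25 (1.08 to 1.46). These intervals take summits as independent, although 42.0% of all summits had another within 1 kb, and no difference between the arms was tested. Strong summits numbered 68 on the short arm (1.69 per Mb, 1.31 to 2.14) and 122 on the long arm (1.28 per Mb, 1.06 to 1.53). Their ratio of 1.32 had an interval from 0.968 to 1.79, which includes equal densities. Band 10p15.1 alone held 21 of the 68 on the short arm. Of the 41 chromosome arms with at least 100 summits, the short arm ranked 11 and the long arm 13 in summits per Mb, and 5 and 14 in strong summits per Mb. The medians over those arms were 16.05 summits and 0.952 strong summits per Mb.

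Within the arms the density was uneven. The chromosome was cut into 136 windows of 1 Mb. They held a median of 14 summits, from 0 in 11 windows to 91 in the densest. The median was 15 in the windows of the short arm and 13 in those of the long arm. The 14 densest windows held 903 summits, which is 33.2% of the total (31.4 to 35.0). They also held 69 of the strong summits (36.3%). No strong summit fell in 63 windows, while 10 windows held 5 or more.

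**Figure D1:**
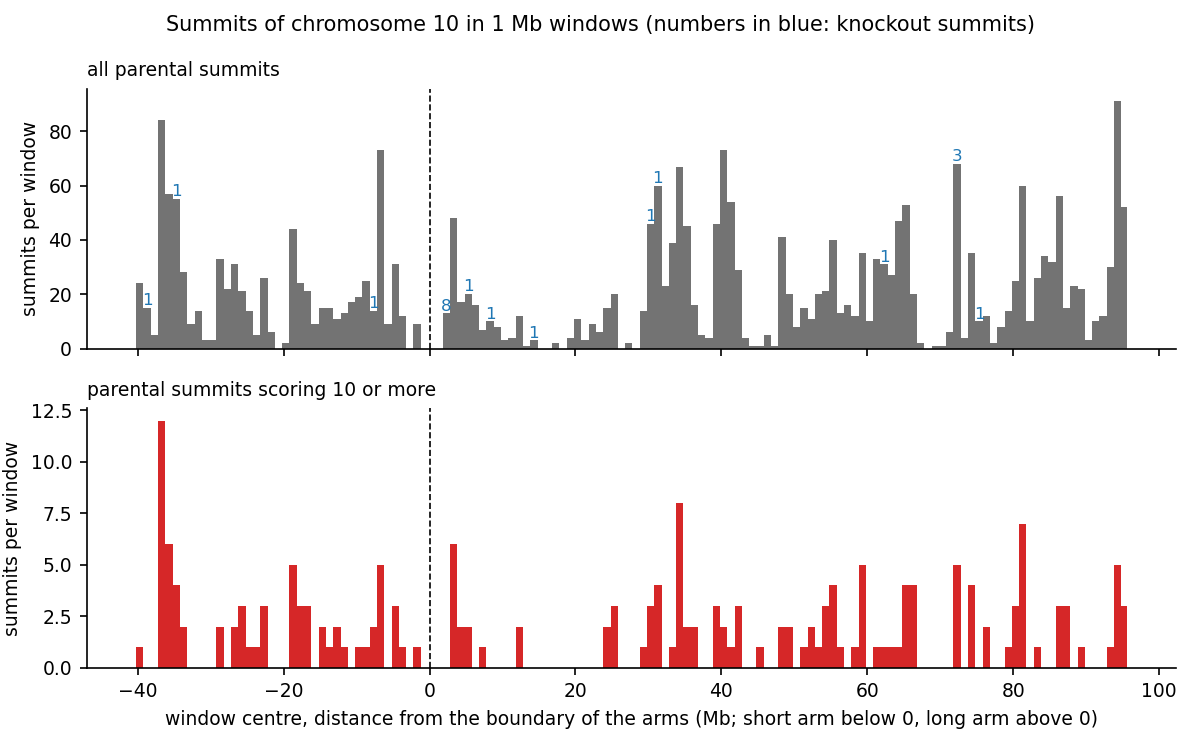
Parental summits of chromosome 10 per 1 Mb window (upper panel) and those with a score of 10 or more (lower panel), against the distance of the window from the boundary of the arms in Mb, with the short arm below 0. Blue numbers count knockout summits. The densest window holds 91 summits near the end of the long arm, the window with most strong summits holds 12 near the end of the short arm, and 8 knockout summits share the window centred 2.3 Mb past the boundary.

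The densest window was chr10:134000001-135000000 in 10q26.3, with 91 summits, 5 of them strong. The window chr10:3000001-4000000 at the boundary of 10p15.2 and 10p15.1 followed with 84 summits. It also had the most strong summits of any window, 12. Next came chr10:33000001-34000000 in 10p11.22 and chr10:80000001-81000000 in 10q22.3, both with 73 summits, of which 5 and 2 were strong. The window chr10:112000001-113000000 in 10q25.2 held 68 summits, 5 of them strong, and 3 knockout summits. High density and many strong summits therefore did not always fall together, as the 10q22.3 window shows. Windows with 50 or more summits had a strong share of 7.64% (5.99 to 9.57), against 5.0% (3.12 to 7.54) in windows with 1 to 14. These intervals overlap.

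Summits were lacking over a few long stretches. No parental summit lay between positions 38817253 and 42361764, the stretch over the centromere. The next longest gap, from 54625082 to 57390876 in 10q21.1, held all of PCDH15. This gene encodes a protocadherin of the hair cells of the inner ear and spans 993 kb. A further gap ran from 67413147 to 69550435 in 10q21.3. The windows with no summit formed a stretch of 3 at the centromere, a stretch of 2 in 10q21.1 and 6 single windows.

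On chromosome 10 density followed the staining of the bands. Giemsa-negative bands, which are generally gene-rich and early replicating, held 29.7 summits per Mb. They made up 43.6% of the length of chromosome 10 and carried 64.4% of its summits. The darkest bands (gpos100) held 5.83 per Mb. The ratio of these densities was 5.09 (4.32 to 6.04), beside 5.42 (5.18 to 5.68) on the other chromosomes. These ratios were of similar size. On the other chromosomes, however, the most lightly stained bands (gpos25) held 27.5 per Mb, above the 22.4 of Giemsa-negative bands. On chromosome 10 the gpos25 bands held 27.2 per Mb. The strong share was 7.19% in Giemsa-negative bands (126 of 1753 summits) and 9.09% in the darkest (14 of 154). Among the 42 bands, 10q24.33 had 64.4 summits per Mb, 10p15.1 had 63.2 and 10q21.1 had 2.65. Band 10p15.1 alone held 177 summits, 21 of them strong, and 10q22.1 held 221, of which 16 were strong.

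The strong summits numbered 190 (exact Poisson interval 163.9 to 219.0). They made up 6.98% of the chromosome's list (6.05 to 8.0), beside 6.23% (6.0 to 6.46) on the other chromosomes and 6.27% over the whole list. The share was thus close to the background. Since strong summits were part of the rule, nothing is read from it. Scores on chromosome 10 ran from 1.41 to 40.2 with a median of 3.79, the same median as on the other chromosomes. They took 196 distinct values, and 416 summits tied at 3.79. The lowest strong value, 10.02, was shared by 47 summits, and the highest value below the limit, 9.92, belonged to 1. Only 13 summits reached a score of 20, of 297 in the whole list.

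Strong summits had more neighbours than the other summits of chromosome 10. At least 3 other summits lay within 10 kb of 103 of the 190 strong summits (54.2%) and of 1002 of the 2532 others (39.6%). None lay that near to 22 strong summits (11.6%) and 650 of the others (25.7%). The median number of neighbours was 3 for strong summits and 2 for the rest. These neighbour counts are not given for the other chromosomes. Nearby summits are not independent, and the difference was not tested. The spacing of all summits resembled that of the other chromosomes, with a median of 5711 bp against 5723 bp. Strong summits lay a median of 190681 bp apart, against 198324 bp on the other chromosomes.

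The 20 highest summits of chromosome 10 lay in 12 bands, 6 on the short arm and 14 on the long arm. The highest, at position 134498367 in 10q26.3, scored 40.2 and ranked 40 in the whole list. The nearest genes with a model on its 2 sides were LRRC27 and ADAM8. Between them lie 0.881 Mb with 8 protein-coding genes that have no model here, so no gene was assigned to the summit. A second summit of the 20, at 134499664 in the same stretch, scored 18.8. The next, at 80016222 in 10q22.3, 99185679 in 10q24.1 and 17068727 in 10p13, scored 31.6, 30.6 and 29.1. Band 10q22.1 had 3 of the 20, at 70716187 (27.6), 74092348 (26.1) and 71168918 (20.3). Band 10q11.21 had 2, at 43904495 and 44069770, both at 26.1. On the short arm, 10p15.1 had summits at 5061070 (24.6) and 4706905 (17.5), and 10p11.22 at 32636247 (21.7) and 32057848 (18.9). The summit at 21815113 in 10p12.31 scored 20.3. The rest were at 102747450 in 10q24.31 (20.3), 114148979 in 10q25.2 (19.6), 81107607 in 10q22.3 (18.9), 112631862 in 10q25.2 (18.9) and 106082922 in 10q25.1 (18.8). Most of these sites stood in company, and 3 of the 20 had no other summit within 10 kb. A knockout summit lay within 200 bp of 2, at 70716187 and 112631862, and 360 bp from that at 32636247. Among all strong summits the share within 200 bp was 2.11% on chromosome 10 and 6.08% over the whole list. At the last score of the list, 17.5, there were 10 tied summits, of which the first by position was taken.

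Against the number of genes, chromosome 10 stood high among the 23 chromosomes counted. It had 0.259 strong summits per protein-coding gene (0.223 to 0.298) over 734 genes in RefSeq. This was the second highest value, after chromosome 20 with 0.345 (0.297 to 0.398) and before chromosome 5 with 0.230. Its interval overlaps those of chromosomes 20, 5, 8, 3 and 14, so its rank among them is not fixed beyond counting error. The median of the other chromosomes was 0.140. Chromosomes 11 and 12, of similar length, had 0.136 and 0.112. The ratio combines genes and summits. Chromosome 10 was not gene-dense, ranking 15 with 5.42 genes per Mb. Its summits were dense, ranking 5 with 20.1 per Mb against a median of 15.2, and its 1.40 strong summits per Mb ranked 4 against a median of 0.875. Chromosome 11 had nearly as many strong summits, 177, and 20.5 summits per Mb, but 1301 genes. All summits per gene gave the same rank as strong summits, 3.71 against a median of 2.15. For scores of 20 or more, chromosome 10 had 1.77 summits per 100 genes from 13 summits, against a median of 1.42. It then ranked 8, so its second place did not extend to the highest scores.

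**Figure D2:**
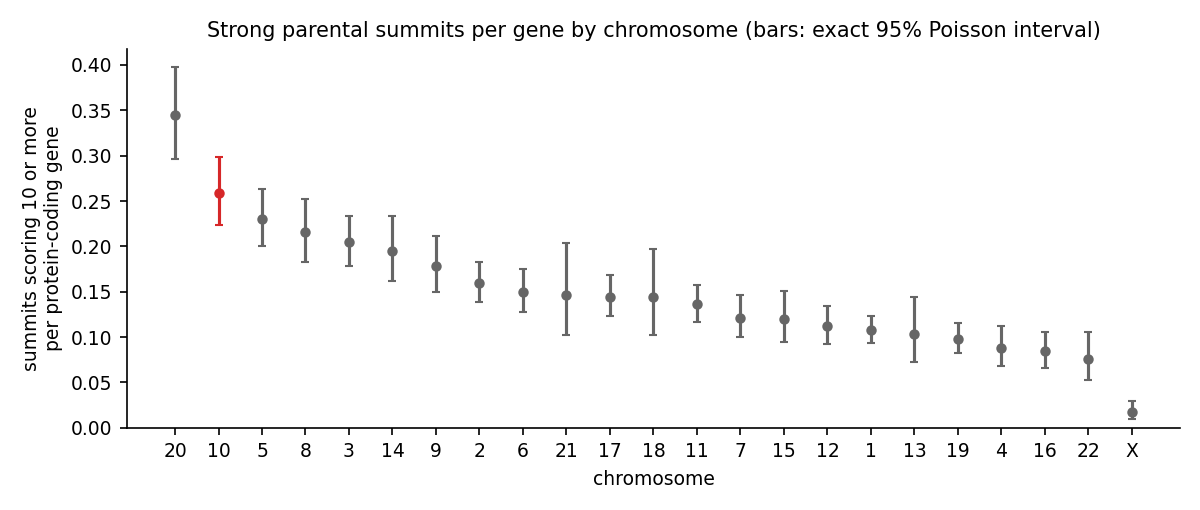
Parental summits with a score of 10 or more per protein-coding gene on each of 23 chromosomes, ordered by value, with exact 95% Poisson intervals. Chromosome 10, in red, has 0.259, below chromosome 20 with 0.345, and its interval overlaps those of chromosomes 20, 5, 8, 3 and 14.

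Genes with an hg19 model divided chromosome 10 into intervals, whose protein-coding genes were counted in RefSeq order. The stretch from the start of the chromosome to RPP38 held 32 strong summits for 74 genes, or 0.432 per gene (0.296 to 0.610). In RefSeq order it contains IDI1 and IDI2 (isoprenoid synthesis), AKR1C1, AKR1C2 and AKR1C3 (steroid reduction), PFKP and PFKFB3 (glycolysis), and the transcription factor genes KLF6 and GATA3. The stretch from NT5C2 to HABP2, with TCF7L2, MXI1, SMC3, DUSP5 and GPAM, reached a like value of 0.436 (0.254 to 0.698) from 17 strong summits and 39 genes. The lowest value among stretches with 20 or more genes was 0.0638 (0.0132 to 0.187), between R3HCC1L and NOLC1. That stretch contains SCD (fatty acid desaturation), HIF1AN, PAX2, TLX1 and LDB1, and held 3 strong summits for 47 genes. Between NSUN6 and PCDH15, where BMI1, ZEB1, ITGB1, NRP1 and MAPK8 lie, there were 44 strong summits for 140 genes (0.314). The stretch between CAMK2G and LINC00857, with PLAU, VCL, KAT6B and ZMIZ1, had 7.47 summits of any score per gene and 0.300 strong ones. The short stretch between LRRC27 and ADAM8 held 72 summits, 81.7 per Mb, and 4 strong ones for 8 genes. These are values of stretches and not of the genes named in them.

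**Figure D3:**
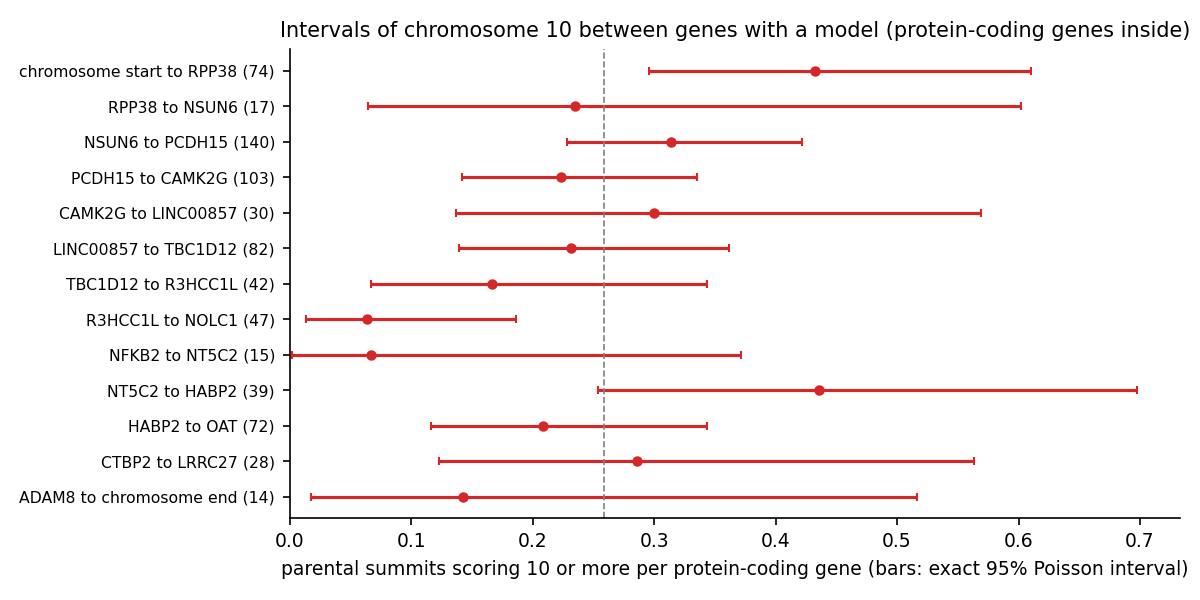
Strong parental summits per protein-coding gene in the stretches of chromosome 10 between genes with an hg19 model that hold 10 or more genes, in order from the short arm's end downwards, with the number of genes in parentheses. Bars are exact 95% Poisson intervals and the dashed line is the value of the whole chromosome, 0.259. The stretch from the chromosome start to RPP38 and that from NT5C2 to HABP2 are highest, at 0.432 and 0.436.

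Models covered 16 genes of chromosome 10, of which 15 are protein-coding, with 19 transcripts, a sample that is not known to be random. A parental summit lay within 1 kb of a start site in 10 of the 15 (66.7%, 38.4 to 88.2). On the other chromosomes this held for 152 of 314 sampled genes (48.4%, 42.8 to 54.1), and the share over all was 49.2%. The chromosome 10 interval contains both of these shares. No knockout summit lay at any of these promoters, but chromosome 10 had only 21 knockout summits in all. Strong promoter summits were found at RPP38 and CTBP2 only, or 13.3% of the 15 genes. For both counts the share on the other chromosomes is not given here, so nothing is read from them.

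CTBP2 encodes a corepressor that joins repressing transcription factors to histone-modifying enzymes. Its promoters had 3 summits within 1 kb, with scores of 13.6, 4.71 and 3.79. The strong one, at position 126849903, lay 771 bp before the upstream start in 10q26.13. The body of the gene, chr10:126672886-126849132, held 28 summits, all intronic by its 2 transcript models. Exons of transcripts without a model were not considered, here or for the other genes. A further strong summit of 13.6 at 126724888 stood in an intron, with summits of 8.87 at 126725451 and 7.77 at 126725755 beside it. CTBP2 thus held most of the 49 summits found within the 16 gene bodies, of which 44 were intronic and 5 exonic by the models. The gene is long, however, at 176 kb, and had 1.59 summits per 10 kb. ADAM8 had 1.38 and LRRC27 1.22 per 10 kb, and RPP38 and NFKB2, with 1 summit each, had 1.45 and 1.26. The remaining genes were lower, from 0 to 0.871.

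The other promoters had lower scores. NOLC1, a nucleolar phosphoprotein gene, had a summit of 7.77 at 68 bp past its start. LRRC27 had 2 summits, of which the higher, 7.77, lay 820 bp before the start. NSUN6, an RNA cytosine methyltransferase gene, had a summit of 4.99 at 350 bp before its start. TBC1D12 had one of 3.79 at 215 bp and OAT, the ornithine aminotransferase gene, one of 3.62 at 330 bp past the start. CAMK2G, a calcium-dependent kinase gene, had 3 summits with a best score of 2.93, and ADAM8, a membrane metalloprotease gene, had 2 with the same best score. The best scores of these last 4 genes lay at or below the chromosome's median of 3.79. No promoter summit was found for PCDH15, R3HCC1L, GBF1, NT5C2, HABP2 and the non-coding LINC00857. Their nearest summits were 829885, 123857, 14745, 10222, 129165 and 2595 bp from a start. GBF1, a Golgi traffic regulator, had 3 summits within its body all the same.

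By function, 2 of the 23 listed genes for transcription factors and chromatin proteins had a model, CTBP2 and NFKB2, and both had a promoter summit. Among 14 adhesion and matrix genes ADAM8 and PCDH15 had a model, and ADAM8 had promoter summits. Of 14 signalling genes CAMK2G alone had a model and a summit. HABP2 and PCDH15 were the 2 with a model among 25 markers of other tissues, and neither had a promoter summit. None of the 19 sterol, lipid and steroid genes and none of the 9 hypoxia and glycolysis genes had a model. These counts are too small to set the groups against each other.

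Dense runs of strong summits, with gaps of at most 20000 bp and at least 5 members, were found at 2 places on chromosome 10 and at 26 on the other chromosomes. The first, chr10:43892027-43932726 in 10q11.21, spanned 40.7 kb with 20 summits of all scores, 6 of them strong. Its strong scores were 13.3, 12.4, 11.2, 26.1, 10.02 and 10.02 in order of position, and the median over its 20 summits was 6.19. Of these, 3 stood close together, 43902752, 43903774 and 43904495. The flanks of the run, 100 kb on each side, held 6 summits together, none of them strong. The second, chr10:74069492-74095258 in 10q22.1, spanned 25.8 kb with 22 summits, 6 of them strong. Its strong scores were 13.5, 12.4, 13.6, 10.02, 26.1 and 10.02, and its median was 5.40. It stood in a dense neighbourhood, with 42 summits in the same flanks. Neither run held a knockout summit, and no such count is given for the 26 runs on the other chromosomes. With gaps of at most 10000 bp no run was left.

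**Figure D4:**
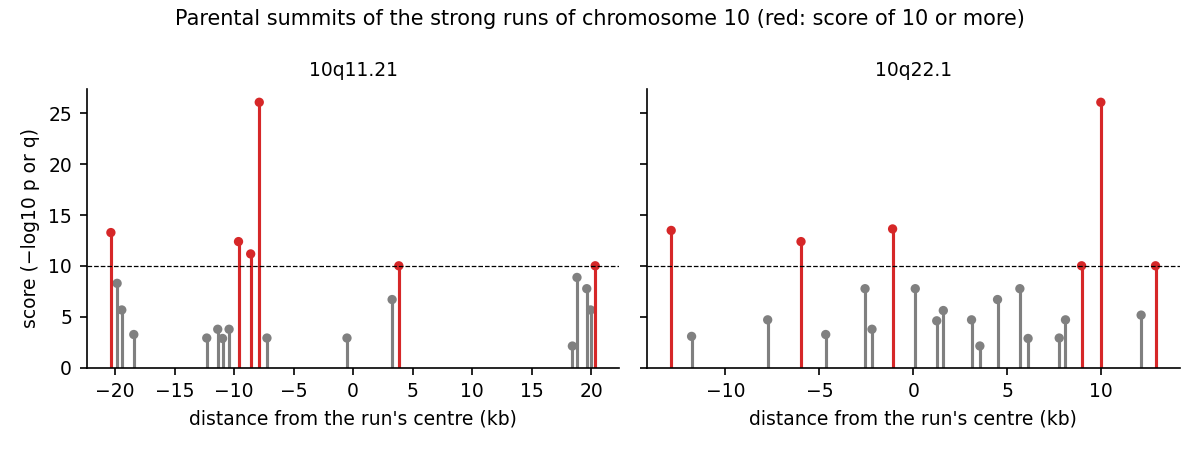
Score of each parental summit in the runs of 10q11.21 (left) and 10q22.1 (right) against its distance from the centre of the run in kb. Red marks a score of 10 or more, the dashed line. Both runs hold 6 strong summits and peak at 26.1, with the 10q11.21 summits in separate clumps and those of 10q22.1 spread along the run.

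When runs were taken over summits of any score, with gaps of at most 5000 bp and at least 8 summits, chromosome 10 had 30, of which 6 were on the short arm. They held 383 summits (14.1% of the list), against 15.3% in 530 runs on the other chromosomes. The largest, chr10:74067769-74104790, contained the 10q22.1 run and held 28 summits. Its neighbour chr10:74000568-74035322 held 23. The run chr10:112153980-112190917 in 10q25.2 held 27, and chr10:121410695-121440914 in 10q26.11 held 24. That of 10q25.2 was the only one of the 30 with a knockout summit. Chromosome 10 had only 21 knockout summits, and no such count is given for the 530 other runs, so nothing is read from this. Of the 30 runs, 12 had no strong summit, among them chr10:33538260-33564429 in 10p11.22 with 20 summits. Strong summits made up 9.40% of the summits in runs (6.67 to 12.8) and 6.58% of those outside (5.61 to 7.67). These intervals overlap.

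The knockout list had 21 summits on chromosome 10. A parental summit lay within 200 bp of 15 of them (71.4%, 47.8 to 88.7). The share was 75.8% on the other chromosomes (276 of 364) and 75.6% over the whole list, inside the interval for chromosome 10. Shared summits lay 1 to 100 bp apart, with a median of 20 bp. The lists were called separately and differ in length, so scores set side by side describe the lists and are not read as a change in binding.

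The knockout summits fell into a cluster beside the centromere and a scattered remainder. Within 1 Mb of the centromeric bands, which end at 42300000, lay 8 of the 21 (38.1%, 18.1 to 61.6). On the other chromosomes 13 of 364 lay that near (3.57%). Of the parental summits, 30 lay there on chromosome 10 (1.10%), beside 1.19% on the others. The 8 summits stood between 42384727 and 42599668, 84.7 to 299.7 kb past the bands. The interval of the 38.1% share takes them as independent. They were clumped, however, with close neighbours such as 42384727 and 42385219, or 42597036 and 42599668. Repeats lie beside centromeres, and the sources used here do not say how reads with several matching places were treated.

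Knockout scores in this cluster ranged widely. In order of position they were 7.10, 17.0, 1.90, 3.95, 6.70, 6.52, 18.9 and 18.6. The nearest parental summits scored 2.78, 2.21, 6.78, 4.71, 4.71, 4.06, 3.07 and 1.95. Among the 6 shared pairs the knockout score was the higher in 4, and none of these nearest parental summits was strong. How often this held for shared pairs on the other chromosomes is not given, so nothing is read from the 4. All 3 knockout summits of chromosome 10 with a score of 10 or more were in this cluster, of 48 in the whole knockout list. The 2 knockout summits at 42392728 and 42599668 were not shared, with their nearest parental summit 2360 and 350 bp away, and the first of these has the same nearest parental summit as 42390363.

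**Figure D5:**
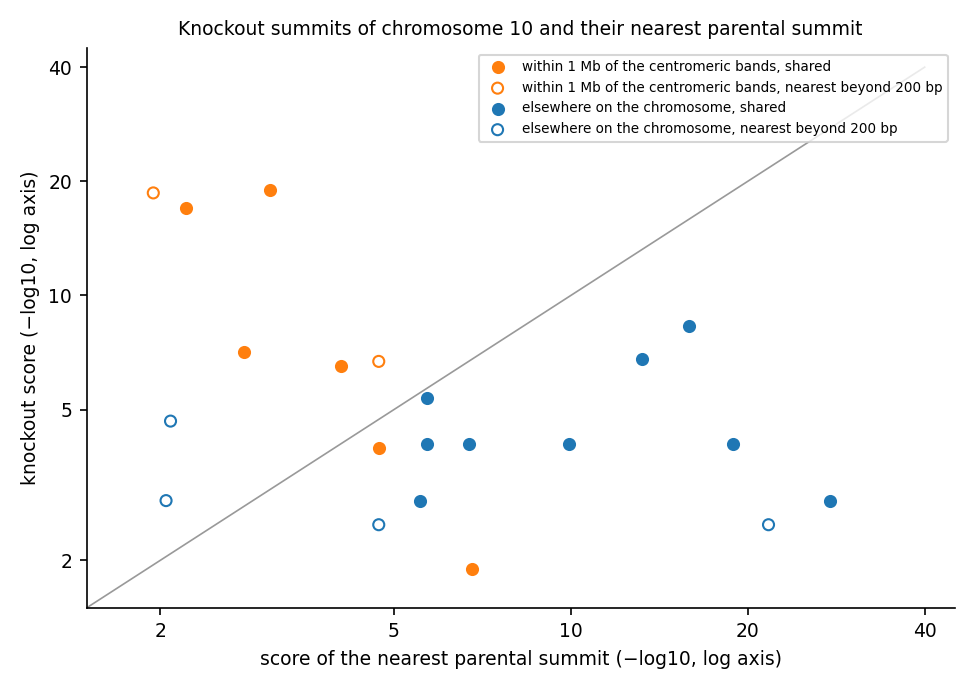
Score of each of the 21 knockout summits of chromosome 10 against the score of its nearest parental summit, both on log axes, with the line of equal scores. Orange marks summits within 1 Mb of the centromeric bands, and open circles have their nearest parental summit beyond 200 bp. The 3 knockout scores of 10 or more are all orange, and every filled blue point lies under the line.

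Of the 13 knockout summits away from the centromere 9 were shared, and the parental score was the higher in all 9. This count is not given for shared pairs on the other chromosomes, so nothing is read from it. Knockout scores away from the centromere ran from 2.48 to 8.31. The highest, 8.31 at 112177146, lay in the 10q25.2 run, 35 bp from a parental summit of 15.9. At 45496541 a knockout score of 6.80 stood beside a parental 13.2, at 70716207 one of 2.88 beside 27.6, and at 112631867 one of 4.06 beside 18.9. These are the 4 strong sites that were shared. Weaker shared sites were 1102529 (4.06 beside 9.92), 5708322 (4.06 beside 5.68), 71906062 (4.06 beside 6.70), 102672802 (2.88 beside 5.54) and 115614669 (5.37 beside 5.68). The last pair was nearly equal. The other 4 had no partner within 200 bp. The summit at 32635887 (2.48) lay 360 bp from the strong parental summit at 32636247, and that at 48321238 (2.88) lay 2423 bp from its nearest. Those at 54074599 (2.48) and 112505123 (4.66) lay 171287 and 37879 bp away, so they were isolated in the parental list.

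Few strong parental sites of chromosome 10 were found again in the knockout list. A knockout summit lay within 200 bp of 4 of the 190 (2.11%, 0.577 to 5.30). The share was 6.36% on the other chromosomes (171 of 2690, 5.46 to 7.35) and 6.08% over the whole list. Within 100 bp they were 2.11% (0.577 to 5.30) on chromosome 10 and 5.20% (4.40 to 6.11) on the others, with overlapping intervals. Within 500 bp the shares were 2.63% (0.860 to 6.03) and 7.73% (6.75 to 8.81). The intervals cover counting error of 1 library each. Strong summits were part of the rule that chose the chromosome, so these shares are a description and the difference was not tested. Within 1000 bp, 185 strong summits (97.4%) had no knockout summit. A knockout summit lay that near to 5 of the 190 (2.63%), beside 238 of 2690 (8.85%) on the other chromosomes. Over all scores, 15 of the 2722 parental summits of chromosome 10 (0.551%) had a knockout summit within 200 bp. Of the 13 summits with a score of 20 or more, 1 had a knockout partner (7.69%). For these last counts, over all scores and from 20 up, the share on the other chromosomes is not given. Nothing is read from them.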

How the data were processed

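The data were 1 parental and 1 ZMYND8 knockout ChIP-seq library, grouped by their labelled genotype. Tools named by the submitters' processing notes are Bowtie2 2.2.3, MACS2 2.0.10, Picard 1.127 and FastQC 0.11.2, and the build is hg19. The sources used here give no settings, control, duplicate handling or depth. The deposited lists hold a position and the authors' −log10 p or q per summit, called per library without pooling. Scores depend on depth and control. They were used to rank or filter within a list, and scores of both lists are set side by side at knockout summits as a description.

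Positions are 1-based on hg19. Summits within 200 bp were called shared. Intervals are exact, Poisson for counts and Clopper-Pearson for shares, at 95%. Lengths came from GenomeInfoDb 1.38.1, bands from circlize 0.4.16, and transcript models from examples in pyranges 0.1.4 and GenomicFeatures 1.54.1. Gene types, gene order and promoter letters came from RefSeq on GRCh38.p14, with no coordinates converted. A full hg19 annotation and genome were not used here. Named regions were the 20 highest parental summits (ties by position), all runs of strong summits, all knockout summits, the 5 densest windows and the longest empty stretches. The largest runs of the rule for summits of any score were added after their values were seen. Named genes were all those with a model. Stretches between modelled genes are named with examples from the gene lists. Those examples, the CTBP2 body summits, the genes named as background, the motifs and the 3 promoters shown were chosen after values were seen. Members and lists were chosen with earlier results of these data known. Sharing and runs were checked on simulated lists. Software was numpy 2.4.6, pandas 2.3.3, matplotlib 3.10.9 and scipy 1.17.1 under Python 3.11.15. Alternatives covered score minimums, merging, window sizes, run rules, sharing distances, promoter widths and gene counts.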

Additional observations from a re-analysis of the deposited data

How the results depend on the processing

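No paired analysis was possible because there was a single library for either genotype and no result comes from a test. Of 33 alternatives, 4 of them chosen after seeing the data, 19 stayed within the interval of the reported value (for the count of runs, within 1.5 times). The others follow, and beyond the construction of each alternative the cause was not tested. The ratio of summits per Mb of the short to the long arm, 1.02, was 1.25 (1.08 to 1.46) for scores of at least 5. It was 0.821 without the bands of 10p15, a lower value by construction, since dense bands were taken from the short arm only. The densest 10% of windows held 29.0% of summits with 2 Mb windows and 35.7% with windows shifted by 500 kb, against 33.2%. A limit of 5 or 20 in place of 10 gave strong shares of 28.1% and 0.478%. The strong count per gene, 1.85 times the median of the other chromosomes, was 1.25 times (0.664 to 2.13) at a score of at least 20. The 2 runs became 0 with gaps of at most 10000 bp, 5 with at least 3 summits and 30 under the rule for all summits. The share of knockout summits with a parental partner, 71.4%, was 19.0% when the partner had to be strong. The share of strong summits with a knockout partner, 2.11%, was 7.69% (1 of 13) at a score of at least 20. Promoters with a summit, 66.7%, were 33.3% and 13.3% for scores of at least 5 and 10. Without read counts, depth could not be taken into account, and no value has a replicate check.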
